A study of Mus musculus with 6 samples.

Results

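The genes described here encode the proteins of the mitochondrial ribosome. They were chosen by symbol as every gene of the deposited table whose name is Mrpl or Mrps followed by digits, with names containing -ps (pseudogenes) left out. This gave 78 of the 18122 genes in the table, 49 named Mrpl for the large subunit and 29 named Mrps for the small subunit. All 78 passed the filter on low counts, which kept 13691 genes, and the lowest estimated count of any of them in any library was 250. RNA came from mouse lung ILC2s (type 2 innate lymphocytes, which make IL-5 and IL-13 without an antigen receptor), sorted and then cultured. The 3 wild-type (WT) libraries carry the genotype label BALB/C BYJ. The 3 ICOS KO libraries carry the label C.129S4-Icostm1Shr/J, for mice whose gene for the costimulatory receptor ICOS was disrupted by targeting. The strain names differ as well as the allele, so that strain and loss of Icos cannot be told apart. The series' design text speaks of duplicates, while 3 libraries of each genotype were present and used. The labels used here state no age, and do not say if the 3 libraries of a genotype are separate animals. The p-values then cover only the spread among the 6 libraries, some or all of it possibly technical.

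The mitochondrial ribosome translates the few messenger RNAs of the mitochondrial genome, which encode core subunits of the respiratory chain and the ATP synthase. Its RNA is made inside the organelle, whereas all of its proteins are encoded in the nucleus, made in the cytosol and imported. The small subunit binds the messenger RNA and decodes it, and the large subunit joins the amino acids. Some of the proteins have counterparts in the bacterial ribosome and others exist only in mitochondria. Symbols and structure do not match fully: the products of Mrps30 and Mrps18a sit in the large subunit, and the product of Mrps36 belongs to the 2-oxoglutarate dehydrogenase complex.

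Library totals ranged from 13738062 to 18736474 estimated counts, and the 78 genes together took 0.629% to 0.822% of them. Values below are CPM, counts relative to the library total after scaling with TMM factors. Icos, whose counts check the genotype labels, gave 434, 462 and 502 CPM across WT and 140, 170 and 161 CPM across ICOS KO (-1.57 ± 0.10, log2 fold change and SE; edgeR adjusted p = 1.27e-05; exact two-sided permutation p = 0.1, the smallest that 3 against 3 libraries allow). Summed markers of ILC2s (12 of 12 in the table) ranged from 10074 to 11194 CPM in WT and from 10648 to 11530 CPM in ICOS KO. Il5 alone held means of 6460 CPM in WT and 6049 in ICOS KO, so that the sum says little about the other markers. Of these, edgeR called Areg, Klrg1, Arg1 and Il1rl1 higher and Rora lower. Of 12 mast cell and basophil markers 11 were in the table, and edgeR called 7 of them lower and 0 higher. The sum of these markers ranged from 356 to 409 CPM in WT and from 60.9 to 72.1 CPM in ICOS KO. Those of T cells (8 of 8) ranged from 245 to 300 CPM in WT and from 367 to 469 CPM in ICOS KO, of which Trbc1 and Trbc2 were called higher and Cd3e lower by edgeR. The sum for B and plasma cells (6 of 6) ranged from 1027 to 1526 and from 1684 to 1702 CPM, with Cd79b called higher by edgeR. Macrophage and dendritic cell markers (8 of 8) ranged from 112.0 to 166 CPM in WT and from 71.9 to 108 CPM in ICOS KO, with Csf1r called lower by edgeR. Epithelial and stromal markers (5 of 6) ranged from 119 to 163 and from 144 to 178 CPM. Of these Epcam was called higher, while Sftpc had a log2 fold change of -2.02 and was not called. Over all tested genes edgeR called 1.29% higher and 2.01% lower. None of these markers was at 0 in all 6 libraries. The part of these other cell types in the values below was not tested. In bulk RNA fewer cells of a type and less RNA per cell cannot be told apart.

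None of the 78 mitochondrial ribosomal protein genes passed the test between ICOS KO and WT, while 69 of them had a positive log2 fold change and 9 a negative one (positive in 49.6% of all genes). Their median log2 fold change was 0.23, against -0.004 over all 13691 genes tested. The edgeR quasi-likelihood test with an adjusted p below 0.05 called 3.29% of all genes, 1.29% as higher and 2.01% as lower in ICOS KO. Of those 451 calls 39% were higher, and with library totals in place of TMM factors 28.2% of 451 were. The smallest adjusted p among the 78 was 0.0648, that of Mrpl57. At an unadjusted p below 0.05, 22 of the 78 were higher and none lower, beside 9.64% and 10.2% of all genes. Every ICOS KO library lay above every WT library for 17 of them (21.8%) and below for 1, beside 11.9% and 12.5% of all genes. Over all tested genes the share above fell with transcript length, at 23.7% under 800 bases, 19.4% from 800 to 1500 and 7.15% of longer ones. Among the 78 genes it differed little between these lengths, at 24%, 21.4% and 20%. Of the 1824 tested genes under 800 bases 1487 had a positive log2 fold change. Other tools gave other counts: DESeq2 called 6 of the 78 as higher (3.03% of all genes), limma voom none (1.23% of all genes), and limma voom with sample quality weights 5 (2.91% of all genes), and none of these tools called one as lower.

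**Figure D1:**
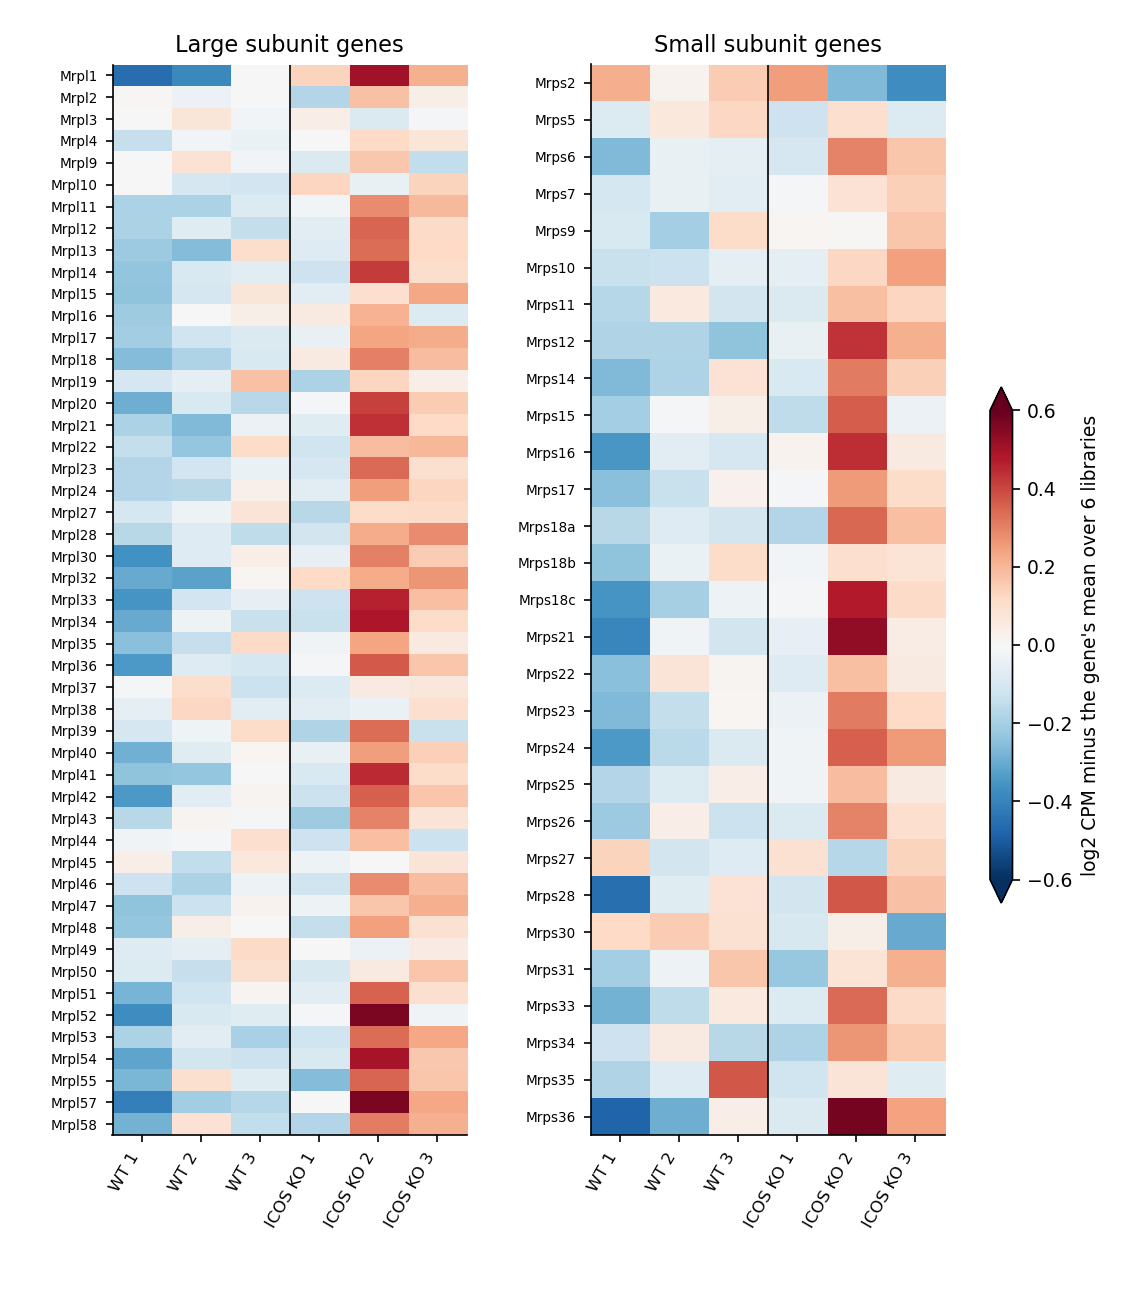
Each cell is the log2 CPM of 1 gene (rows, ordered by number within the large and the small subunit) in 1 library (columns), minus that gene's mean over the 6 libraries, with red above and blue below the mean and the black line between WT and ICOS KO. ICOS KO 2 is the highest library for 54 of the 78 genes and WT 1 the lowest for 50.

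The libraries of each genotype differed among themselves as well. The 78 genes summed to 6109, 6681 and 6905 CPM in WT replicates 1, 2 and 3 and to 6773, 8616 and 7685 CPM in ICOS KO replicates 1, 2 and 3. The groups overlapped, since ICOS KO replicate 1 lay below WT replicate 3. On average WT held 6565 ± 411 and ICOS KO 7691 ± 922 CPM (SD, n = 3 each), 1.17 times as much. ICOS KO replicate 2 held the highest value of 54 of the 78 genes, ICOS KO replicate 3 that of 14 and ICOS KO replicate 1 that of 1. WT replicate 1 held the lowest value of 50. Over the 6 libraries, which the points share, a gene's log2 CPM had a median r of 0.904 with the mean of the other genes of the list, with 54 genes over 0.8 and 4 under 0. Without ICOS KO replicate 2 the median log2 fold change of the 78 genes was 0.143, and without ICOS KO replicate 1 it was 0.31 and 13 genes were called higher (3.47% of all genes in that fit).

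Large and small subunit genes had similar medians and sums with a near-constant ratio. The 49 Mrpl genes summed to 3999, 4342 and 4489 CPM in WT and to 4420, 5639 and 5051 CPM in ICOS KO. The 29 Mrps genes summed to 2110, 2338 and 2416 CPM in WT and to 2353, 2978 and 2633 CPM in ICOS KO. For both subunits ICOS KO replicate 1 lay inside the WT range. The ratio of the large to the small sum was 1.89, 1.86 and 1.86 in WT and 1.88, 1.89 and 1.92 in ICOS KO, with overlapping groups and means of 1.87 ± 0.0216 and 1.897 ± 0.0200 (SD, n = 3 each). Of the Mrpl genes 44 had a positive and 5 a negative log2 fold change, with a median of 0.23. Of the Mrps genes 25 were positive and 4 negative, with a median of 0.21. With Mrps30 and Mrps18a counted in the large subunit and Mrps36 left out, the medians were 0.23 over 51 genes and 0.19 over 26. These are descriptions of the lists, and the difference between the subunits was not tested.

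**Figure D2:**
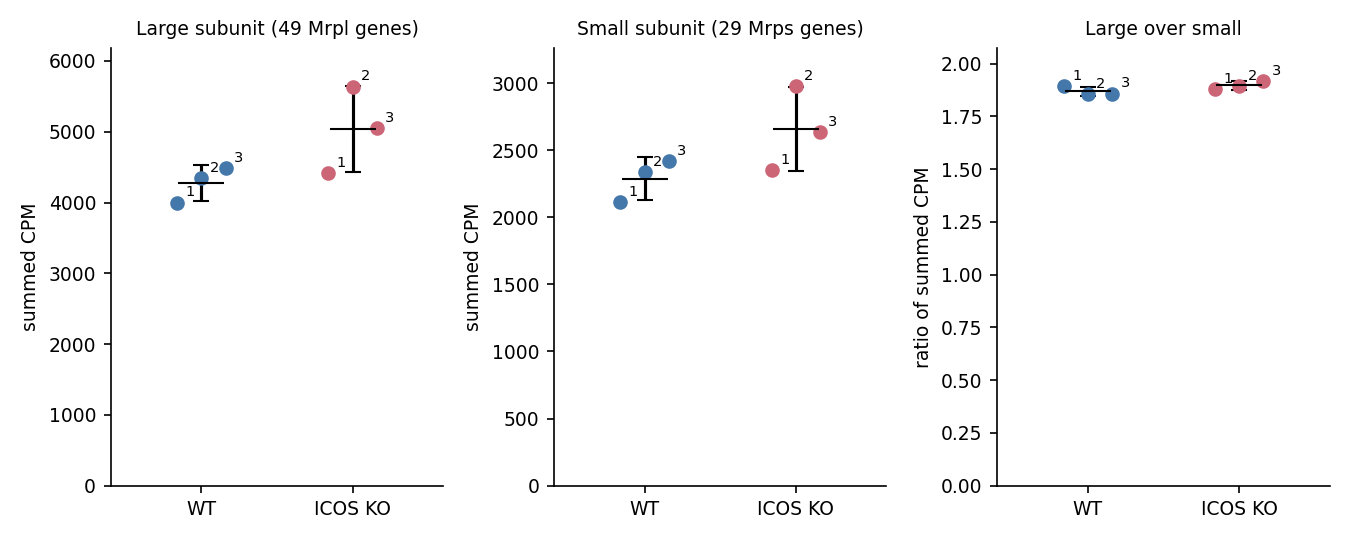
Points are libraries, numbered by replicate, with the mean (horizontal line) and SD (bars, n = 3) per genotype for the summed CPM of the 49 large subunit genes (left), of the 29 small subunit genes (middle) and for their ratio (right), with axes from 0. Both sums are highest in ICOS KO 2, while the ratio stays between 1.86 and 1.92 in all 6 libraries.

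The genes were also grouped by number, as a rough stand-in for descent from bacterial proteins. This rule uses the symbol alone and can misplace single genes. The 28 Mrpl genes numbered up to 36 had a median log2 fold change of 0.26, and the 21 with higher numbers one of 0.23. The 16 Mrps genes numbered up to 21 had a median of 0.23 and the 13 with higher numbers one of 0.17. The middle 50% of the 78 genes lay between 0.11 and 0.31, and differences between these groups were not tested. The extremes were Mrpl1 at 0.56 and Mrps30 at -0.24.

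**Figure D3:**
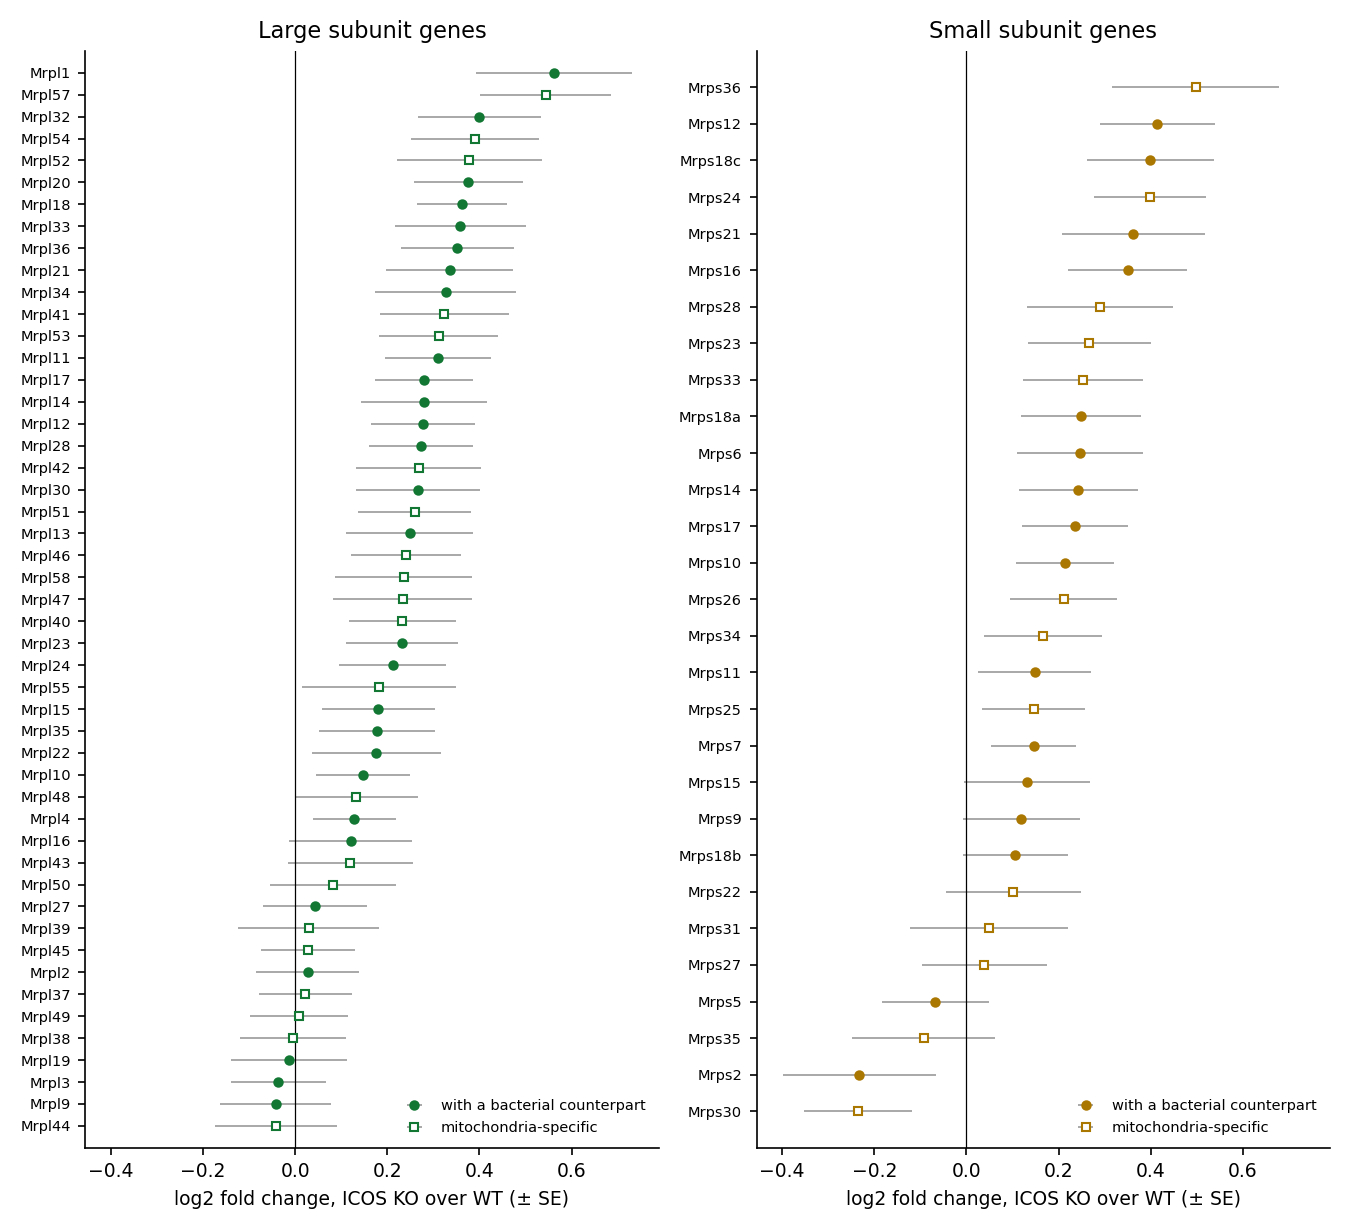
Points give the log2 fold change of ICOS KO over WT with its SE for each large subunit gene (left) and small subunit gene (right), filled for genes with a bacterial counterpart and open for mitochondria-specific ones. Points lie right of 0 for 44 of 49 large and 25 of 29 small subunit genes, and none passed the adjusted threshold.

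In the large subunit, the smallest p-values were those of Mrpl57, Mrpl18, Mrpl1 and Mrpl20. Mrpl57 (chromosome 14, 57826234 to 57829296, GRCm38), which encodes a short mitochondria-specific protein, gave 73.2, 84.2 and 86.4 CPM across WT and 97.1, 144 and 114 CPM across ICOS KO. The groups did not overlap, and ICOS KO replicate 2 stood highest. The means were 81.3 ± 7.08 and 118 ± 23.8 CPM (SD, n = 3 each; log2 fold change 0.54 ± 0.14 SE; edgeR adjusted p = 0.0648). Mrpl18 (chromosome 17, 12911349 to 12916345), a relative of the bacterial protein that binds 5S ribosomal RNA, was the most abundant in CPM, at 224, 236 and 252 CPM in WT and 279, 331 and 306 CPM in ICOS KO (0.36 ± 0.10; edgeR adjusted p = 0.0728). Its values did not overlap either, and its exons share 141 bases with Tcp1 on the other strand. Whether the counting used strand is not given in the sources used here, so that reads of such neighbours may be mixed.

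Mrpl1 (chromosome 5, 96209493 to 96266727), the counterpart of the protein of the mobile stalk through which spent tRNA leaves, had lower values, 17.0, 17.9 and 23.3 CPM across WT and 25.6, 33.1 and 27.2 CPM across ICOS KO (0.56 ± 0.17; edgeR adjusted p = 0.103). Mrpl20 (chromosome 4, 155802878 to 155809975) gave 129, 148 and 140.5 CPM across WT and 157, 209 and 175 CPM across ICOS KO (0.38 ± 0.12; edgeR adjusted p = 0.117). The 2 genotypes did not overlap for either gene. DESeq2 placed all 4 of these genes below its adjusted threshold, with adjusted p from 0.00827 for Mrpl57 to 0.0475 for Mrpl20.

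In the small subunit, Mrps12, Mrps24, Mrps18c and Mrps36 had the smallest p-values. Mrps12 (chromosome 7, 28739641 to 28741820), the counterpart of a bacterial protein at the decoding centre, gave 79.4, 79.6 and 76.1 CPM across WT, a narrow range, and 87.3, 122 and 105 CPM across ICOS KO (0.41 ± 0.12; edgeR adjusted p = 0.103). Mrps24 (chromosome 11, 5703983 to 5715680) gave 94.9, 108 and 113 CPM across WT and 119, 155 and 144 CPM across ICOS KO (0.40 ± 0.12; edgeR adjusted p = 0.105). Its exons share 226 bases with Urgcp on the same strand. For both genes the groups did not overlap.

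Mrps18c (chromosome 5, 100798627 to 100804471), one of 3 mouse relatives of bacterial S18, gave 72.7, 81.0 and 90.9 CPM across WT and 92.6, 129 and 101 CPM across ICOS KO (0.40 ± 0.14; edgeR adjusted p = 0.15). Its highest WT and lowest ICOS KO values were nearly equal, and its exons share 250 bases with Gm43511 on the same strand. For Mrps18a the log2 fold change was 0.25 ± 0.13 (edgeR adjusted p = 0.309), and for Mrps18b it was 0.11 ± 0.11 (edgeR adjusted p = 0.631). Mrps36 (chromosome 13, 100735955 to 100744659), which stands apart from the ribosome by function, gave 31.7, 36.2 and 45.5 CPM across WT and 41.7, 65.9 and 52.4 CPM across ICOS KO, with overlapping groups (0.50 ± 0.18; edgeR adjusted p = 0.166).

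Mrps30 and Mrps2 had the lowest log2 fold changes and were chosen after their values were seen. Mrps30 (chromosome 13, 118378381 to 118387252), also known for its place in the large subunit, gave 65.2, 66.5 and 63.9 CPM across WT and 56.0, 61.5 and 48.6 CPM across ICOS KO (-0.24 ± 0.12; edgeR adjusted p = 0.289). It was the only one of the 78 genes whose ICOS KO libraries all lay below all WT libraries. Its exons share 623 bases with B430218F22Rik on the other strand. Mrps2 gave 43.6, 38.1 and 41.7 CPM across WT and 44.6, 31.2 and 29.02 CPM across ICOS KO, with overlapping groups (-0.23 ± 0.17; edgeR adjusted p = 0.454).

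Icos lies on chromosome 1 together with 5 of the ribosomal genes. Mrps9 (42851233 to 42905683) and Mrpl44 (79776018 to 79781445) lie 18.1 and 18.8 megabases from Icos. Mrps9 gave 42.5, 39.2 and 48.8 CPM across WT and 45.5, 45.5 and 50.7 CPM across ICOS KO, and Mrpl44, whose product resembles an RNase III, had 37.0, 37.3 and 40.2 CPM and 34.4, 42.5 and 34.3 CPM. Both had overlapping groups, with log2 fold changes of 0.12 ± 0.13 and -0.04 ± 0.13. Mrpl30, 23.1 megabases away, had a log2 fold change of 0.27 ± 0.13, Mrpl15, 56.2 megabases away, one of 0.18 ± 0.12, and Mrps14, 99.2 megabases away, one of 0.24 ± 0.13. The edgeR adjusted p of the 5 genes ranged from 0.293 for Mrpl30 to 0.888 for Mrpl44. The other 73 genes lie on 16 further chromosomes.

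Between genes, levels were compared per kilobase of transcript, since a longer transcript gives more reads. In WT the 49 Mrpl genes had a median of 72.5 CPM per kilobase and the 29 Mrps genes one of 66.2, and in ICOS KO 85.0 and 85.9. Mrpl33, whose product is a small protein near the tRNA exit site, was highest, at 468 ± 51.0 CPM per kilobase in WT and 600.2 ± 121 in ICOS KO (SD, n = 3 each). Mrpl20 at 282 ± 19.7 and Mrpl52 at 262 ± 29.4 followed among Mrpl genes in WT, and these means differed by less than the SD of either. Among Mrps genes, the highest by the mean over both genotypes were Mrps21, at 263 ± 34.2 CPM per kilobase in WT, Mrps14 at 169 ± 22.01 and Mrps18c at 128 ± 14.3. In WT alone Mrps33 stood above Mrps18c, at 131 ± 15.9, a difference smaller than the SD of either.

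By the mean over both genotypes the lowest large subunit genes per kilobase were Mrpl47, at 5.68 ± 0.519 in WT, Mrpl1 at 5.66 ± 0.997 and Mrpl19 at 12.5 ± 1.31. The lowest small subunit genes were Mrps35 at 10.7 ± 2.27, Mrps25 at 10.7 ± 0.801 and Mrps31 at 12.3 ± 1.58. Mrpl1 and Mrpl47 did not differ beyond their SD in WT, and neither did Mrps35 and Mrps25. Some of these genes have long annotated transcripts, such as 6073 bases for Mrps25 and 5000 for Mrpl19, and the files do not show which transcript was made. Per kilobase of coding sequence Mrps25 moved from rank 75 to rank 44 of the 78 genes and Mrpl57 from rank 55 to rank 15, whereas Mrpl33 kept rank 1 and Mrpl1 rank 77.

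Some properties of the libraries ran in the same order as the sum of the 78 genes. In order of their summed CPM the libraries ran from WT 1 over WT 2, ICOS KO 1, WT 3 and ICOS KO 3 to ICOS KO 2. The nuclear RNA Malat1, at 610, 664, 811, 996, 1413 and 1687 CPM, ran in the same order, with all 6 libraries at the same rank. The share of mitochondrially encoded RNA did too, at 0.263%, 0.294%, 0.329%, 0.422%, 0.492% and 0.616% of counts. The mean transcript length, weighted by CPM, ran in the reverse order, at 2342, 2309, 2254, 2233, 2155 and 2104 bases. The 6 libraries share these properties across both genotypes, and a WT library stood between 2 ICOS KO libraries in each. The first principal component of all tested genes (42.9% of the variance) did not run in this order: 4 of 6 libraries had the same rank, and all WT libraries (-29.8, -28.4 and -17.0) lay below all ICOS KO libraries (8.29, 42.6 and 24.3). The part of these properties in the values of the 78 genes was not tested.

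**Figure D4:**
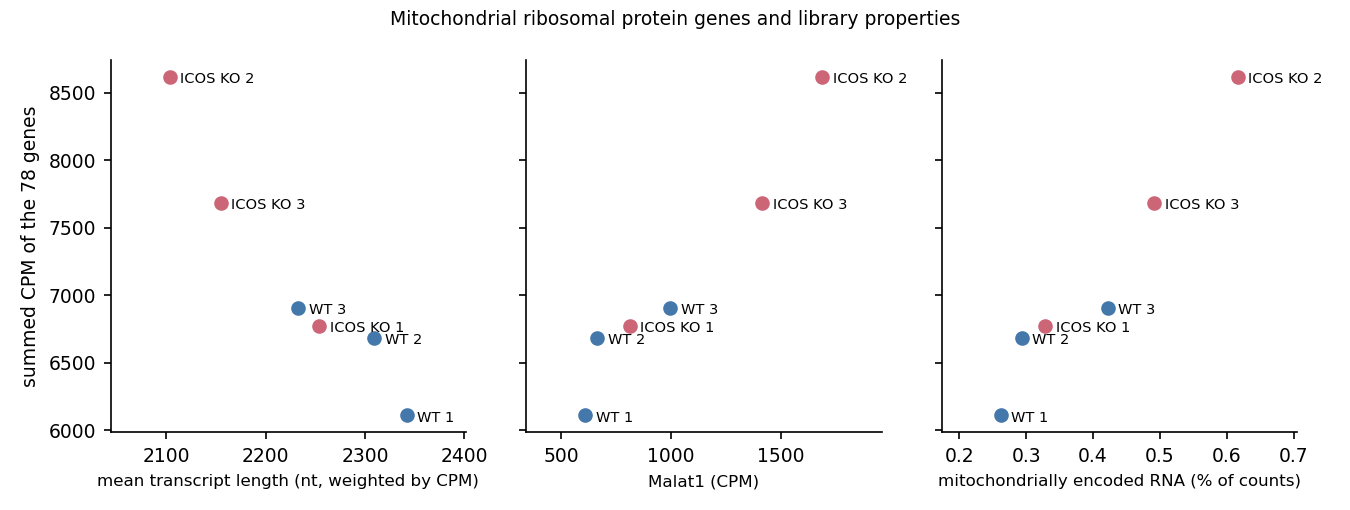
Each point is 1 library (blue WT, red ICOS KO), with the summed CPM of the 78 genes on the vertical axis, which does not start at 0, against the mean transcript length weighted by CPM (left), Malat1 in CPM (middle) and mitochondrially encoded RNA in percent of counts (right). The summed CPM runs from 6109 in WT 1 to 8616 in ICOS KO 2, in the same order as Malat1 and the mitochondrial share and in the reverse order of transcript length.

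Fold changes fell with transcript length over the whole table, and the 78 genes have short transcripts, with a median of 1148 bases against 2202 over all genes tested. The 25 of them under 800 bases had a median log2 fold change of 0.29, beside 0.31 over all 1824 tested genes of that length. The 28 from 800 to 1500 bases had one of 0.19, beside 0.14 over all 2479, and the 25 of 1500 bases and over had one of 0.13, beside -0.09 over all 9088. Across the 78 genes the log2 fold change had a Pearson r of -0.415 and a Spearman rho of -0.503 with log2 length. Across 13391 tested genes of known length these were -0.286 and -0.387. Genes are not independent replicates, and all points share the same 6 libraries. With GC content the 78 genes gave an r of 0.0572.

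After the trend of each library over transcript length and GC content had been taken out, the median log2 fold change of the 78 genes was 0.063, with 53 positive. It was 0.069 for Mrpl and 0.062 for Mrps genes, against -0.007 over all genes. By length, medians were 0.010 under 800 bases (13 of 25 positive), 0.063 from 800 to 1500 (19 of 28) and 0.121 beyond (21 of 25). Over all tested genes of these lengths they were -0.009, 0.019 and -0.019. The differences between lengths were not tested. With coding length in place of transcript length, a choice made after the data were seen, the median of the 78 genes was 0.072, with 59 positive. In the first of these fits Mrpl57 was called higher (0.59; edgeR adjusted p = 0.041; 1.79% of all genes were called higher), resting on an annotated transcript of 2877 bases with 306 of coding sequence. In the second it was not (0.29; edgeR adjusted p = 0.152), and none of the 78 was called (1.43% of all genes were called higher). The log2 fold change of Mrpl18 was 0.27 in the first fit, that of Mrpl1 0.62 and that of Mrpl20 0.01. Among the small subunit genes named above it was 0.16 for Mrps12, 0.26 for Mrps24, 0.10 for Mrps18c and 0.19 for Mrps36.

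**Figure D5:**
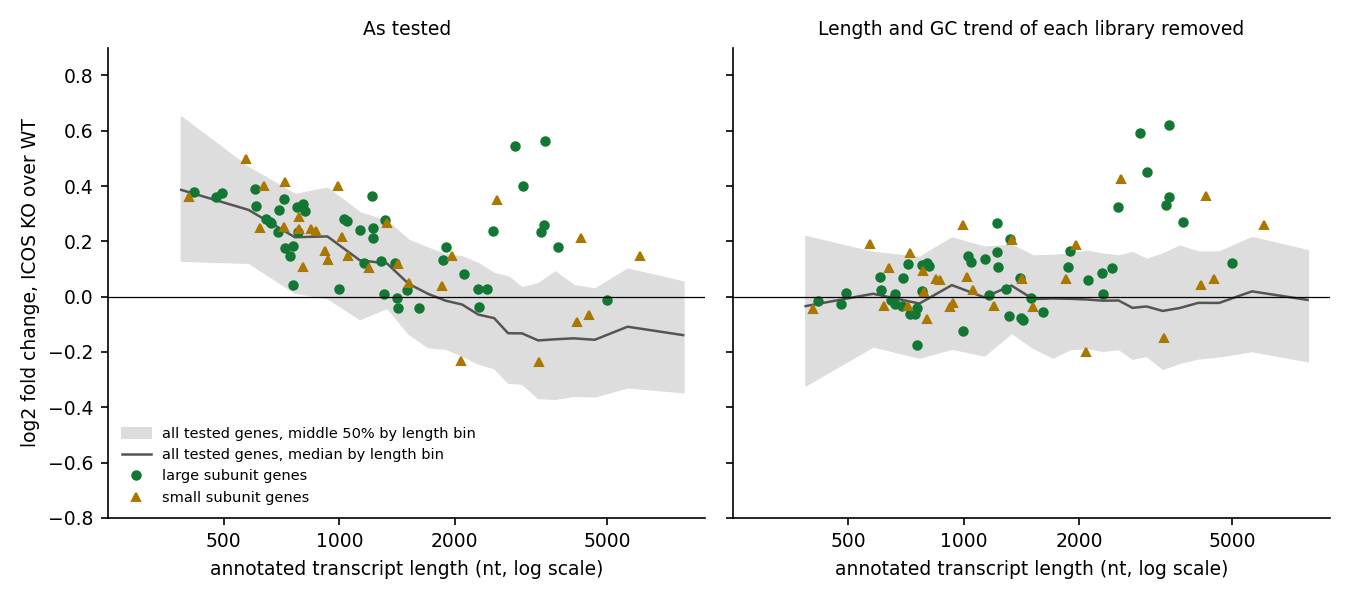
The log2 fold change of ICOS KO over WT is plotted against annotated transcript length (log scale) for large (green circles) and small (brown triangles) subunit genes, over the median (line) and the middle 50% (grey band) of all tested genes in 20 bins of length, as tested (left) and with each library's trend with length and GC content removed (right). On the left the genes under 800 bases lie along the falling line, with a median of 0.29, and on the right the 78 genes have a median of 0.063.

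Other lists of mitochondrial translation had medians between -0.07 and 0.14, and in these 4 lists neither edgeR, DESeq2 nor limma voom, with or without sample quality weights, called a gene. At an unadjusted edgeR p below 0.05 were 2 of the proteins under other symbols (1 higher, 1 lower) and 4 assembly factors (1 higher, 3 lower). The same held for 1 translation factor, which was lower, and 0 synthetases, beside 9.64% higher and 10.2% lower of all genes. Of 6 ribosomal or ribosome-associated proteins under other symbols (Dap3, Ptcd3, Chchd1, Aurkaip1, Gadd45gip1 and Oxa1l), none was called and 5 had positive log2 fold changes, with a median of 0.14. Aurkaip1, a small subunit protein, held 169 ± 9.18 CPM in WT and 214 ± 39.4 in ICOS KO (SD, n = 3 each; edgeR adjusted p = 0.17). None of 26 assembly factors was called, with 11 positive and a median of -0.05, and Fastkd2, which binds the ribosomal RNA of the large subunit, held 29.7 ± 4.22 in WT and 23.0 ± 1.83 CPM in ICOS KO (edgeR adjusted p = 0.211). Among 18 translation factors none was called, with 9 positive and a median of 0.01, and Gatc, part of the enzyme that completes glutaminyl-tRNA, held 21.8 ± 0.834 and 17.5 ± 1.19 CPM (edgeR adjusted p = 0.25). Among 17 mitochondrial aminoacyl-tRNA synthetases none was called, with 5 positive and a median of -0.07, and Vars2, the valine enzyme, held 21.5 ± 2.34 and 16.7 ± 2.59 CPM (edgeR adjusted p = 0.262). These lists have longer transcripts, with medians of 1708 to 2046 bases for the assembly factors, translation factors and synthetases.

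Of 17 genes of mitochondrial transcription and RNA stability edgeR and limma voom called none. At an unadjusted edgeR p below 0.05 were 8 of them, 2 higher and 6 lower, beside 9.64% higher and 10.2% lower of all genes. DESeq2 called Hsd17b10 higher (3.03% of all genes were). Weighted limma voom called it higher (2.91% of all genes were) and Lrpprc, Mtpap and Pnpt1 lower. Log2 fold changes were positive for 7, with a median of -0.04. The smallest p was that of Hsd17b10, a subunit of mitochondrial RNase P, at 128 ± 11.6 and 173 ± 24.2 CPM (SD, n = 3 each; edgeR adjusted p = 0.0851). All 13 mitochondrially encoded protein genes had positive log2 fold changes, with a median of 0.82, and of 0.36 with the length and GC trend removed. The genotypes overlapped for every one of them. Again edgeR and limma voom called none (10 higher at an unadjusted edgeR p below 0.05, beside 9.64% of all genes). DESeq2 called 3 as higher (mt-Atp8, mt-Cytb and mt-Nd6), beside 3.03% of all genes, and limma voom with sample quality weights 7, beside 2.91%. Of these, mt-Nd6 held 16.2 ± 6.48 CPM in WT and 31.1 ± 9.58 in ICOS KO (edgeR adjusted p = 0.0947). The RNA of the small mitochondrial subunit, mt-Rnr1, held 128 ± 24.8 CPM in WT and 252 ± 141 in ICOS KO (edgeR adjusted p = 0.114), and both ribosomal RNA genes were positive, with none called by these 4 tools and 2 at an unadjusted edgeR p below 0.05.

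Of 11 regulators of mitochondrial biogenesis, 2 fell and none rose, beside 2.01% of all genes called lower. At an unadjusted edgeR p below 0.05, 4 were lower and 0 higher, beside 10.2% and 9.64% of all genes. Tfe3, a transcription factor of lysosomal and mitochondrial genes, had 42.8 ± 7.83 CPM in WT and 25.97 ± 3.34 in ICOS KO (SD, n = 3 each), a change of -0.72 ± 0.16 in log2 (edgeR adjusted p = 0.0367). Myc, which drives ribosome and mitochondrial genes in growing cells, fell from 90.9 ± 7.71 to 64.7 ± 5.17 CPM (-0.49 ± 0.11; edgeR adjusted p = 0.0375). Leaving out WT replicate 1, WT replicate 2, ICOS KO replicate 2 or ICOS KO replicate 3 ended both calls, and leaving out WT replicate 3 also ended that of Myc (edgeR adjusted p up to 0.21). Nrf1, a factor that binds promoters of many nuclear genes for mitochondrial proteins, held 104 ± 7.67 CPM in WT and 80.6 ± 12.8 in ICOS KO. Its ICOS KO libraries all lay below all WT libraries, as in 12.5% of all genes (-0.37 ± 0.13; edgeR adjusted p = 0.145). Gabpa, the DNA-binding subunit of GABP, had 28.1 ± 3.32 and 27.4 ± 2.17 CPM, and Yy1 had 21.6 ± 1.91 and 20.4 ± 2.08 CPM. For Gabpa and Yy1 the groups overlapped, with log2 fold changes of -0.04 and -0.08. None of these 3 was called by edgeR.

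The promoters of the 78 genes were searched for letters of factors known from nuclear genes for mitochondrial proteins. The window was 250 bases before to 50 after each start in RefSeq (GRCm38.p6), which held 69 of the 78 genes and 9543 of the genes tested, and both strands were read. The ETS letters CCGGAAG, the core that GABP binds, were in the windows of 26 of 69 genes (37.7%), 15 of 43 Mrpl and 11 of 26 Mrps genes, beside 21.3% of tested genes and 8.86% of all windows. Genes of the cytosolic ribosome held them at a like share, 24 of 63 (38.1%). The YY1 letters AAGATGGCG were in those of 8 genes (11.6%), beside 3.77% of tested genes and 1.40% of all windows. An NRF1 palindrome was in those of 3 (4.35%), beside 2.43% and 0.971%, and the TATA box letters TATAAA in those of 5 (7.25%), beside 8.82% and 13.6%. The 26 genes with the ETS letters had a median log2 fold change of 0.26 and the 43 without them one of 0.21. Such matches describe the letters and show no binding. The ETS letters, in capitals in either orientation, lie close to the start in the windows of Mrpl52, Mrpl34 and Mrps22. They are shown because they had the smallest p-values of each subunit (2 large, and 1 small since no other qualified) among genes with a match and no annotated exon in the 250 bases before the start. Each line gives those 250 bases, 5′ to 3′ on the strand of the gene. Mrpl52 is at chr14:54426659-54426908 (plus strand), Mrpl34 at chr8:71464676-71464925 (plus) and Mrps22 at chr9:98601680-98601929 (minus).
Mrpl52: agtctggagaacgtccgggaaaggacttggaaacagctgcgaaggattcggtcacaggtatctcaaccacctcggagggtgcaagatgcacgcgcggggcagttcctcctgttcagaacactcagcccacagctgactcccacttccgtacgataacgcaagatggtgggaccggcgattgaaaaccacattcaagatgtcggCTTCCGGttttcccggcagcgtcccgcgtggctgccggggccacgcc
Mrpl34: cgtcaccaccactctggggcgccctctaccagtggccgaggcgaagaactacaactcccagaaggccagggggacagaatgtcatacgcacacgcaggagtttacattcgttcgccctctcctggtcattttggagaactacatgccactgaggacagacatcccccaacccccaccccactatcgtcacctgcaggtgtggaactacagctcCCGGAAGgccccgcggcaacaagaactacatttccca
Mrps22: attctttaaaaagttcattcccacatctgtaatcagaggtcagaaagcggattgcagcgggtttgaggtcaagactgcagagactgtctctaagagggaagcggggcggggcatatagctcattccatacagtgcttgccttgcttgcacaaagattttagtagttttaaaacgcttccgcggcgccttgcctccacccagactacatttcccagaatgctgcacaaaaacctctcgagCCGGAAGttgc
The capitals begin 47 bases before the start in Mrpl52, 37 in Mrpl34 and 11 in Mrps22. Mrpl52 gave 95.4, 116 and 117 CPM across WT and 123, 183 and 122 CPM across ICOS KO, without overlap (0.38 ± 0.16; edgeR adjusted p = 0.216). Mrpl34 gave 59.5, 71.8 and 66.8 CPM across WT and 66.8, 103 and 79.1 CPM across ICOS KO, with overlap (0.33 ± 0.15; edgeR adjusted p = 0.258). Mrps22, whose product is mitochondria-specific, gave 22.2, 27.9 and 26.7 CPM across WT and 25.1, 29.9 and 27.4 CPM across ICOS KO, with overlap (0.10 ± 0.15; edgeR adjusted p = 0.732).

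Mrpl46 and Mrps11 lie head to head on chromosome 7 (78775236 to 78783531 and 78783119 to 78792989), with 173 bases of annotated exon in common on opposite strands. Mrpl46 gave 87.5, 83.7 and 93.5 CPM across WT and 87.9, 116 and 108 CPM across ICOS KO, and Mrps11 had 49.3, 57.8 and 51.3 CPM and 52.2, 62.8 and 60.7 CPM. Their log2 fold changes were 0.24 ± 0.12 and 0.15 ± 0.12, with edgeR adjusted p of 0.287 and 0.521. In all, the exons of 33 of the 78 genes overlap another annotated gene, and the 45 without such an overlap had a median log2 fold change of 0.24.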

How the data were processed

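RNA of 3 WT and 3 ICOS KO libraries was made, per the labels' protocols, from 10 pg of RNA with a SMARTer low-input kit. Partek 10.0, STAR 2.7.8, DESeq2 and the build mm10 are named in the submitters' processing notes, with no role. For annotation, counting and strand the sources used here name nothing. The authors deposited estimated counts per gene, of which 38.9% were not whole; they were rounded. Reads have no molecular identifiers, and near-identical copies (pseudogenes) make values uncertain.

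Genes were kept with filterByExpr, scaled with TMM and tested with edgeR 4.0.16 (quasi-likelihood, R 4.3.3), with genotype as the only term and Benjamini-Hochberg adjustment over 13691 genes and a threshold of 0.05. SE is that implied by the F statistic. limma 3.58.1 and DESeq2 1.42.0 were alternatives. The length and GC trend was fitted per library with mgcv 1.9.3 (lengths for 97.8% of tested genes, coding lengths for 83.2%) and used as an offset. The fit and offset were tested on simulated counts, with known changes and with a length trend put into 1 library. This cannot show whether the offset spares a genotype difference that runs with transcript length. Positions and lengths come from GENCODE M21 (GRCm38), with the transcript of median length per gene. The chi-square of counts was at least 8.85 times its degrees of freedom for all pairs of libraries, so none was a copy of another within counting spread. Separate libraries made from 1 RNA sample could also differ this much, so that such repeats cannot be told apart here.

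The genes and lists were chosen with earlier results of these data known. Named were Icos, any called gene of the 78, the 4 smallest p and the 3 highest and 3 lowest levels per kilobase per subunit, those on chromosome 1, and in each pathway list the called genes or the smallest p. Mrps30, Mrps2, Mrps18a, Mrps18b, Mrpl34, Mrps22, Mrpl46, Mrps11, Nrf1, Gabpa and Yy1 were added after their values were seen.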

Additional observations from a re-analysis of the deposited data

How the results depend on the processing

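The count of all genes called was 451. It was 929 with DESeq2, 906 with limma voom and sample quality weights, and 193 to 1090 without one library (193 without WT replicate 1, 194 without WT replicate 2, 216 without ICOS KO replicate 3, 1090 without ICOS KO replicate 1). Of the 78 genes none was called, and 6 were with DESeq2 (4 Mrpl, 2 Mrps), 5 with weighted voom (4 and 1), 1 with the length and GC trend removed (1 Mrpl, 0 Mrps) and 0 to 13 without one library (0 to 9 Mrpl, 0 to 4 Mrps). The last counts were above 0 only without ICOS KO replicate 1. With the replicate block, 784 genes, 4 of the 78, 3 Mrpl and 1 Mrps were called. The numbers share only a number in the labels: deviations of same-numbered libraries correlated at 0.11, 0.0663 and 0.064, though each of the 6 libraries correlated best with its own number. The median log2 fold change of the 78 genes (0.232) was 0.143 to 0.31 without one library, 0.0628 once length and GC trends were taken out and 0.0723 with coding length; for Mrpl these were 0.0691 and 0.0731 and for Mrps 0.062 and 0.067. It was 0.166 with library totals alone, where the median of all genes was -0.0676. Signs turned for Mrpl19 (upper-quartile 0.0103, weighted voom 0.024, trend removed 0.121), Mrps31 (totals alone -0.0157, trend removed -0.0377), Mrps35 (trend removed 0.041), and with the trend removed Mrpl33 (-0.0279, from 0.359), Mrpl52 (-0.0142, from 0.378) and Mrps21 (-0.0434, from 0.362), which are among 20 of the 78 genes that this fit moved from positive to negative; with coding length Mrps25 (-0.0149). Without one library Mrpl19 ranged from -0.0782 to 0.0757, Mrps35 from -0.2 to 0.0898, Mrps31 from -0.0525 to 0.169 and Mrpl44 from -0.147 to 0.0117. The cause of these shifts was not tested.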

Other observations

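The cytosolic ribosome and the respiratory chain, also with short transcripts, were set beside the mitochondrial ribosomal protein genes, by symbol and after the data were seen. The 87 tested genes of the cytosolic ribosome (median transcript 723.5 bases) gave 0.27 as median log2 fold change, 85 of them positive, none called by edgeR (18 at an unadjusted p below 0.05) and 2 by DESeq2, and 0.022 with the length and GC trend removed. The 83 tested nuclear genes of the respiratory chain (645 bases) had a median of 0.32, with 79 positive, none called by edgeR (48 at an unadjusted p below 0.05), 8 by DESeq2 and 6 by limma voom with sample quality weights, and 0.044 with the trend removed. All 18 and all 48 genes at an unadjusted edgeR p below 0.05 were higher in ICOS KO. Over all tested genes 9.64% were higher and 10.2% lower at that p. Of the 1824 tested genes under 800 bases 436 were higher and 43 lower. DESeq2 called 3.03% of all genes higher, and limma voom with sample quality weights 2.91%. The difference between either comparison group and the 78 genes was not tested.

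Of the 5 pseudogenes with the same symbols and -ps, 2 passed the filter on low counts. Mrpl23-ps1 stood at 4.19, 5.05 and 5.38 CPM in WT and 4.20, 5.64 and 5.27 CPM in ICOS KO (edgeR adjusted p = 0.941), and its reads may be shared with Mrpl23. Mrpl48-ps stood at 1.42, 1.42 and 1.97 CPM in WT and 1.61, 0.676 and 1.11 CPM in ICOS KO (edgeR adjusted p = 0.617), and the other 3 had at most 0.676 CPM in any library.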
